A study of Mus musculus with 15 samples.

Results

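The genes described here encode the machinery that brings new proteins into the endoplasmic reticulum, namely the signal recognition particle, its receptor, the Sec61 channel and its helpers, signal peptidase and oligosaccharyl transferase. They were 36 genes named by function, of 55335 gene identifiers in the files. All 36 had a row, and all 36 passed edgeR's filter on low counts, which left 13077 genes in all. The lowest count of any of them in any library was 71 reads, for Tram2. Measured values entered the choice through that filter, which reads the counts of both groups. The set was also proposed with earlier results of these data known, so its direction is given as a description and is no independent evidence.

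The RNA came from a mouse pre-B cell line; at that stage a B cell precursor pairs its heavy chain with a surrogate light chain. There were 3 libraries titled MSL2KO, from an Msl2 knockout made by CRISPR/Cas9 with a guide RNA, and 3 libraries titled MSL2WT, from the wt clone. Both groups carry the Slp65 knockout, come from bone marrow cells grown up from a single cell, had no treatment and were kept in medium with interleukin 7. MSL2 belongs to the MSL complex, whose enzyme MOF acetylates histone H4. The design compared gene expression between the knockout and the wt clone. The knockout is 1 line, and nothing in the labels says that the libraries were separate cultures, so the spread behind each p-value is that among these libraries and could be technical.

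The genotype tags of all 6 RNA libraries say the opposite of their titles. Groups here follow the titles, and every direction depends on them. Msl2 RNA did not settle the matter, at 105, 103 and 121 CPM (counts scaled to library size by TMM) in MSL2KO and 97.1, 99.3 and 92.3 CPM in MSL2WT libraries, not called (adjusted p 0.302 in edgeR). RNA of Blnk, which encodes SLP65, was at 108 to 116 CPM in MSL2KO and 83.2 to 120 CPM in MSL2WT libraries. Total counts ranged from 15250975 to 20803227 in MSL2KO and from 14092278 to 17437198 in MSL2WT libraries. The 10 markers that define pre-B cells summed to between 2933 and 3000 CPM in MSL2KO and between 2954 and 3123 CPM in MSL2WT libraries, and edgeR and DESeq2 called 0 of them, with 1 (Vpreb1) under 0.05 before adjustment. Among them Rag1 was near 0, with 29, 17 and 9 reads in MSL2KO and 0, 34 and 0 reads in MSL2WT libraries. Of the surrogate light chain genes, Vpreb1 and Vpreb2 lay lower in all 3 MSL2KO libraries (log2 -0.175 and -0.147), without a call. Igll1, also a surrogate light chain gene, overlapped, at 460, 482 and 463 CPM in MSL2KO and 439, 445 and 558 CPM in MSL2WT libraries (log2 -0.038). Of the 10 pre-B markers, 5 had negative and 5 positive values. Markers of other cell types were near 0. All 10 myeloid markers had at most 20 reads in every library, and 5 of them (Lyz2, Elane, Cebpa, S100a8 and S100a9) had 0. Their sum was between 0.892 and 2.18 CPM in MSL2KO and between 0.929 and 2.03 CPM in MSL2WT libraries. Of 10 T and NK cell markers, 8 had at most 20 reads in every library, 3 (Thy1, Ncr1 and Nkg7) had 0, and the sum reached 4.6 CPM in MSL2KO and 4.68 CPM in MSL2WT libraries. The erythroid and megakaryocyte markers summed to between 2.63 and 3.36 CPM in MSL2KO and between 4.05 and 4.95 CPM in MSL2WT libraries, with Pf4 at 0 and Gata1 called lower at 0.311, 0.329 and 0.066 CPM in MSL2KO against 2.19, 1.58 and 1.79 CPM in MSL2WT libraries (adjusted p 0.00458 in edgeR). At most 20 reads were also found for 7 of 8 stromal markers, with Pecam1, which lymphoid cells also express, as the exception (131, 120 and 115 CPM in MSL2KO and 103, 123 and 104 CPM in MSL2WT libraries). Whether cells of these types had a part in the results was not tested.

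Most secreted and membrane proteins start with a signal sequence that the signal recognition particle binds as it leaves the ribosome. The particle docks on its receptor, the chain is threaded through the Sec61 channel, signal peptidase removes the signal sequence, and oligosaccharyl transferase adds N-linked sugars. In the B lineage this machinery is known to expand when B cells become antibody-secreting plasma cells, under the transcription factor XBP1.

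In MSL2KO libraries 5 of the 36 genes were called lower, in 4 of the 10 roles, and most of the others had small negative values that did not pass the test. In all, 33 had a negative log2 fold change (MSL2KO over MSL2WT), against 49% of all tested genes. The median was -0.17, against 0.00 (0.004) over all tested genes. At a Benjamini-Hochberg adjusted p under 0.05, the quasi-likelihood test of edgeR called 5 genes lower. These were Spcs2 and Spcs3 of signal peptidase, Ssr4 of the TRAP complex, Sec61b of the channel and Magt1 of oligosaccharyl transferase. The 5 calls are 13.9% of the genes, where 2.79% of all tested genes were called lower. edgeR called 0 genes higher, where 1.8% of all tested genes were. Before adjustment, 18 genes were lower at p under 0.05 and 0 higher, against 8.43% and 6.94% of all tested genes. DESeq2 called 11 lower and 0 higher, against 3.56% and 2.5% of all tested genes. In 20 of the 36 genes (55.6%) all 3 MSL2KO libraries lay below all 3 MSL2WT libraries, which held for 11.2% of all tested genes. In 0 of them did all MSL2KO libraries lie above, against 9.68% of all tested genes. Since these are bulk libraries, fewer cells with much of an RNA and less of it per cell cannot be told apart.

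**Figure D1:**
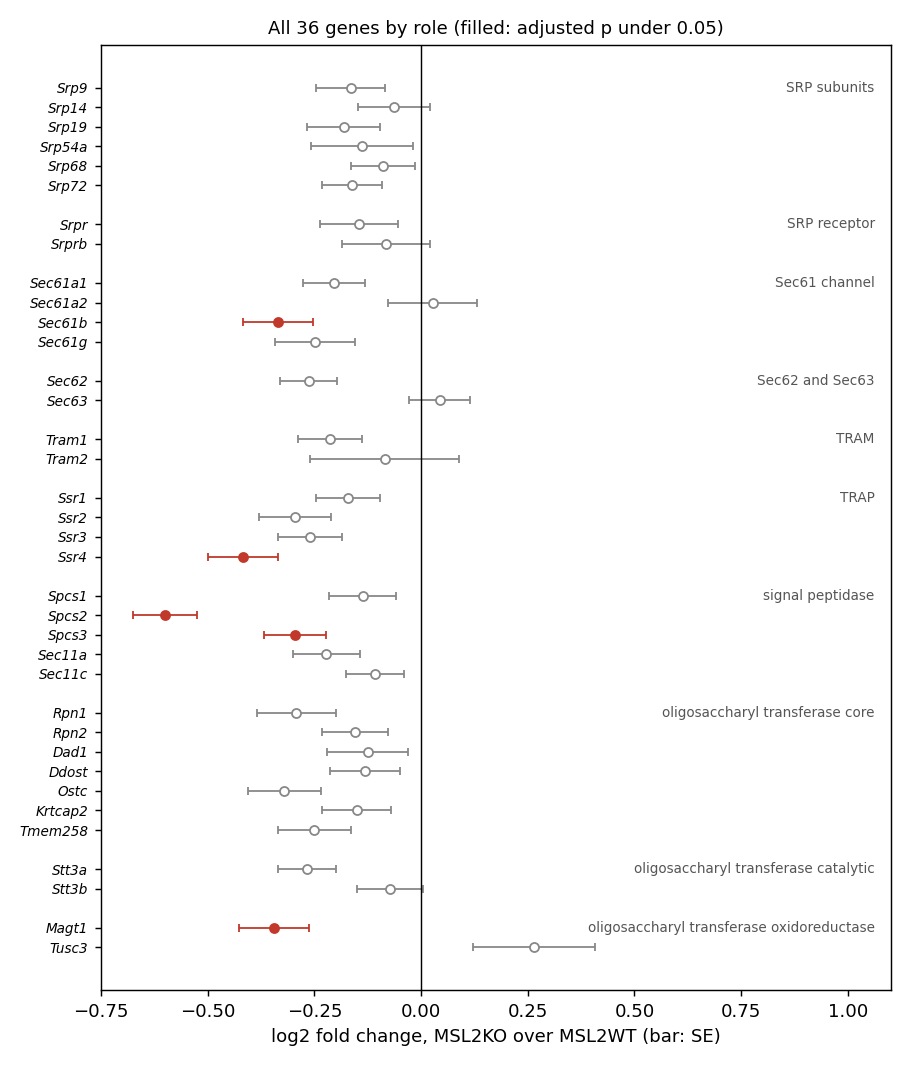
Log2 fold change of each gene, MSL2KO over MSL2WT (x axis), with its SE, grouped by role. Filled red points are the 5 genes with an adjusted p under 0.05, and 33 of the 36 points lie left of 0, with Spcs2 lowest at -0.60 and Tusc3 highest at 0.26.

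The promoters of these genes are shown because the study concerns YY1, a zinc finger factor that binds near many gene starts. RefSeq (GRCm38.p6, the patch level of mm10) gave promoter windows from 250 bases before to 50 after the annotated start for 27 of the 36 genes, with 30 windows in all. For 4 of the 5 called genes, 100 bases before and 20 after the start are printed here 5′ to 3′ on the gene's strand. Capitals mark matches, on either strand, to AAGATGGC (the core of the YY1 motif), CCAAT (the NF-Y box) or CCACG (a box of the ER stress element).
Spcs2, chr7:99858864-99858983, minus strand: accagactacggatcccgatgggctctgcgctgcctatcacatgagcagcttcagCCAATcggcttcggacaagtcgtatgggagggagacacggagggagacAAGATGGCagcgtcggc
Ssr4, chrX:73786923-73787042, plus strand: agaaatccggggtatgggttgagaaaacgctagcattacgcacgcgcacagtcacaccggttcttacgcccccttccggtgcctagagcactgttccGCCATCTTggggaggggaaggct
Sec61b, chr4:47474561-47474680, plus strand: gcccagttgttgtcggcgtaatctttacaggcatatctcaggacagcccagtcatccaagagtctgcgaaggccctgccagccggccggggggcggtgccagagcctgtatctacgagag
Magt1, chrX:106011783-106011902, minus strand: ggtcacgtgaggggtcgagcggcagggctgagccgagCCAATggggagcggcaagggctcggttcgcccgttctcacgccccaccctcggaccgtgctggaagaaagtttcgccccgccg

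The core AAGATGGC was in 2 of the 4 windows of called genes, Spcs2 and Ssr4, and lay at a RefSeq start site in both. The windows of Sec61b and Magt1 had no match, and Spcs3 had no window. Whether a match goes with a change in RNA was not tested. The start used for Spcs2 lies within the longer span that RefSeq gives the gene. That span reaches base 99870340, upstream on the minus strand, so the start used is not its most upstream end. In Spcs2 the core covered bases 4 to 11 counted from the start used. In Ssr4 the core ran on the other strand from base -3 to base 5. Among genes that were not called, it was found in Ssr3, Srp72 and Rpn1, whose matches are shown with 10 or 11 bases on either side. In these 3 lines capitals mark AAGATGGC alone.
Ssr3, chr3:65392653-65392681, minus strand: aaacgacggcAAGATGGCcaatcccgaag
Srp72, chr5:76974711-76974739, plus strand: cacctcctccAAGATGGCgagcggcggca
Rpn1, chr6:88084436-88084464, plus strand: accgggcccaGCCATCTTgtggtgctgtt

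In all, 5 of the 30 windows (16.7%) held AAGATGGC, against 2.75% of all 32851 RefSeq windows and 4.75% of the 11351 windows of tested genes. The match in Ssr3 shares 1 base with a CCAAT box. CCACG, the other box of that element, was in 19 of the 30 windows (63.3%), against 46.7% of the windows of tested genes, but in 1 of the 4 windows of called genes. CCAAT, with which CCACG makes up the full element, was in 15 windows (50%), against 38.2%. The full element, which is CCAAT and CCACG with any 9 bases between them, and TGACGTGG, the letters of the unfolded protein response element, were in 0 of the 30 windows, and in 0.141% and 0.846% of the windows of tested genes. Only these letters and these windows were searched, and no binding data were analysed here. The motifs were chosen with some of these promoters in view, so the matches and their shares are a description and no independent evidence.

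Signal peptidase, which cuts the signal sequence from the entering chain, had the largest percent change in summed CPM of the 10 roles. Its 5 genes summed to 733, 766 and 743 CPM in MSL2KO replicates 1, 2 and 3, against 942, 894 and 971 CPM in MSL2WT replicates 1, 2 and 3, a change of -20.2%. Much of this change came from 1 gene, Spcs2, which averaged 202 CPM in MSL2KO and 306 CPM in MSL2WT libraries. Spcs2 (ENSMUSG00000035227.7, chromosome 7, 99837569 to 99870340), the accessory subunit SPC25, was at 191, 215 and 200 CPM in MSL2KO libraries and at 311, 294 and 314 CPM in MSL2WT libraries. The groups were far apart, and Spcs2 fell by 34%, with a log2 fold change of -0.60 ± 0.075 (SE, adjusted p 0.00162 in edgeR). Its annotated span overlaps that of Xrra1, which had under 1 CPM in every library. Spcs3, the glycosylated subunit SPC22/23, was at 212, 221 and 234 CPM in MSL2KO and at 275, 261 and 282 CPM in MSL2WT libraries. It fell by 18.5% (adjusted p 0.049 in edgeR), and was not called with RLE scaling (adjusted p 0.0515).

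The catalytic subunits are encoded by Sec11a and Sec11c, and the test called neither. Sec11a was at 77.5, 76 and 74.2 CPM in MSL2KO and at 87.7, 81.6 and 96.4 CPM in MSL2WT libraries (log2 -0.22, adjusted p 0.184 in edgeR). Sec11c was at 151, 152 and 142 CPM in MSL2KO and at 161, 156 and 162 CPM in MSL2WT libraries (log2 -0.11, adjusted p 0.544 in edgeR). Both genes lay lower in every MSL2KO library, by a smaller amount than Spcs2. Spcs1, the small subunit SPC12, averaged 98.2 ± 5.47 and 108 ± 7.21 CPM in MSL2KO and MSL2WT libraries (SD, n = 3 each), and its groups overlapped. Spcs2 therefore took a smaller share of the reads of the complex, at 26.1%, 28.1% and 27% in MSL2KO and at 33.1%, 32.9% and 32.3% in MSL2WT libraries. A share of this kind does not depend on how libraries are scaled. The share of Spcs3 was 29.8 ± 1.53% in MSL2KO and 29.2 ± 0.0903% in MSL2WT libraries.

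**Figure D2:**
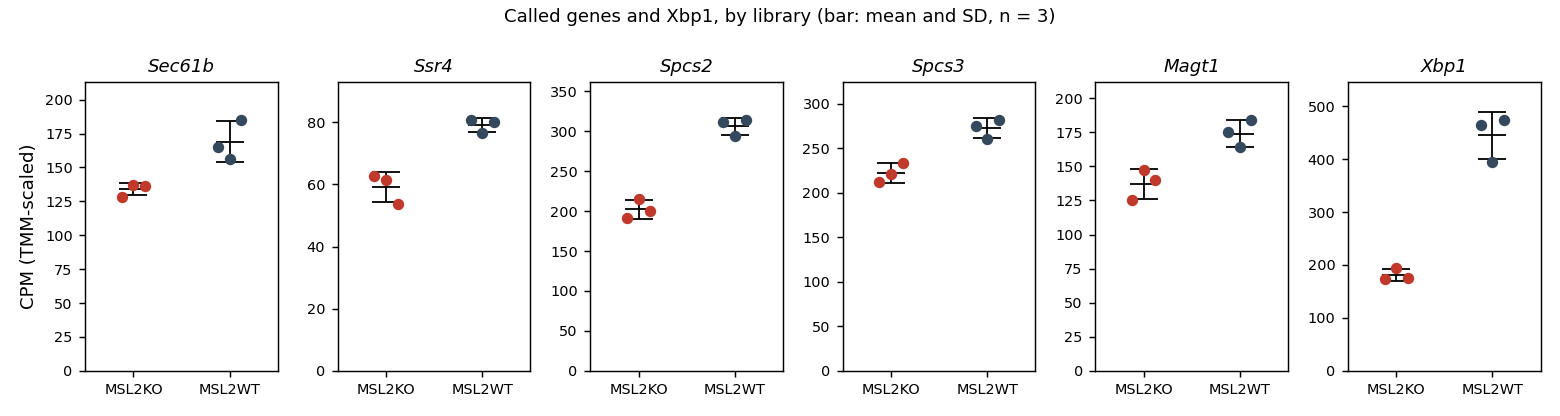
CPM with TMM scaling (y axis, from 0) in each of the 3 MSL2KO and 3 MSL2WT libraries for the 5 called genes and for Xbp1, with mean and SD. In each panel every MSL2KO point lies below every MSL2WT point, with the widest gap for Xbp1.

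The TRAP complex sits beside the channel and helps some signal sequences open it. All 4 subunits had negative values and separated groups, where 11.2% of all tested genes were separated in this direction. edgeR called 1 of the 4, where 2.79% of all tested genes were called lower. The summed level was 800 ± 32.2 CPM in MSL2KO and 954 ± 48 CPM in MSL2WT libraries (SD, n = 3 each). Ssr4 (TRAP delta, chromosome X, 73787023 to 73790828) was at 62.7, 61.3 and 53.7 CPM in MSL2KO and at 80.7, 76.5 and 80.2 CPM in MSL2WT libraries. It fell by 25.1%, with a log2 fold change of -0.42 ± 0.08 (SE) and an adjusted p of 0.0149 in edgeR. The remaining subunits had unadjusted p under 0.05, but did not pass the test over all genes. Ssr3 (TRAP gamma) was at 320, 328 and 345 CPM in MSL2KO and at 395, 377 and 417 CPM in MSL2WT libraries (log2 -0.26, adjusted p 0.0832 in edgeR). Ssr2 (TRAP beta) was at 157, 171 and 173 CPM in MSL2KO and at 194, 193 and 227 CPM in MSL2WT libraries (log2 -0.29, adjusted p 0.0898). Ssr1 (TRAP alpha) was at 224, 248 and 256 CPM in MSL2KO and at 269, 268 and 283 CPM in MSL2WT libraries (log2 -0.17, adjusted p 0.308). With DESeq2, Ssr2, Ssr3 and Ssr4 were called.

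Sec61 is the channel itself, made of the pore-forming alpha subunit and the small beta and gamma subunits. Sec61b, the beta subunit, was at 128, 137 and 136 CPM in MSL2KO and at 165, 156 and 185 CPM in MSL2WT libraries. It fell by 20.7% (log2 -0.33 ± 0.08 SE, adjusted p 0.0464 in edgeR). Sec61a1, the main alpha subunit, was at 184, 193 and 205 CPM in MSL2KO and at 220, 217 and 233 CPM in MSL2WT libraries (log2 -0.20, adjusted p 0.186). Sec61g, the gamma subunit, was at 84, 73.9 and 71.1 CPM in MSL2KO and at 85.3, 86.2 and 101 CPM in MSL2WT libraries (log2 -0.25, adjusted p 0.21). Sec61a1, Sec61b and Sec61g showed separated groups, narrowly so for Sec61g. Sec61a2, a second alpha gene, was at 15.7, 16.9 and 14.7 CPM in MSL2KO and at 14.9, 15.5 and 16 CPM in MSL2WT libraries, which overlap.

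Of the partners of the channel, Sec62, Sec63, Tram1 and Tram2, edgeR called 0, with Sec62 and Tram1 under 0.05 before adjustment and Sec62 called by DESeq2. Sec62, which helps short and weakly recognised chains enter after synthesis, was at 83.8, 79.8 and 84.7 CPM in MSL2KO and at 99.3, 98.1 and 100 CPM in MSL2WT libraries. The groups were well separated, but its adjusted p of 0.0555 (log2 -0.26 ± 0.07 SE, edgeR) missed the threshold. Sec63, which recruits the chaperone BiP to the channel, was at 84.5, 91.8 and 84.3 CPM in MSL2KO and at 81.4, 86.4 and 85.1 CPM in MSL2WT libraries, with overlap. Tram1, a membrane protein that contacts entering chains, was at 309, 308 and 327 CPM in MSL2KO and at 365, 343 and 386 CPM in MSL2WT libraries (log2 -0.21, adjusted p 0.174). Tram2, its relative, was at 4.54, 4.88 and 5.41 CPM in MSL2KO and at 5.02, 5.58 and 5.11 CPM in MSL2WT libraries, with overlap.

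Upstream of the channel no gene passed the test, and the summed CPM of the particle and of its receptor changed by -8.87% and -7.29%, against -15.8% for the channel. Of the 6 genes of the signal recognition particle, all had negative values, between -0.18 and -0.06 on the log2 scale, against 49% of all tested genes. There were 0 edgeR calls and 0 DESeq2 calls. In edgeR 1 gene was lower at an unadjusted p under 0.05, against 8.43% of all tested genes. That gene was Srp72, whose product pairs with that of Srp68, at 183, 179 and 186 CPM in MSL2KO and at 212, 192 and 209 CPM in MSL2WT libraries (log2 -0.16, adjusted p 0.305). Srp68 itself averaged 110 ± 7.87 and 117 ± 1.14 CPM in MSL2KO and MSL2WT libraries (SD, n = 3 each). The groups overlapped for Srp68 and were apart for Srp72. The pair that pauses translation, Srp9 and Srp14, averaged 82.3 ± 1.86 and 76.6 ± 3.93 CPM in MSL2KO libraries, against 92.3 ± 7.86 and 80 ± 7.11 CPM in MSL2WT libraries. Srp19, which assembles the particle, had a log2 fold change of -0.18 (adjusted p 0.352). Srp54a, a copy of the signal-binding GTPase, was at 12.6 ± 1.19 CPM in MSL2KO and 13.9 ± 0.841 CPM in MSL2WT libraries, and may share reads with the near-identical Srp54c. The receptor genes Srpr and Srprb, whose products are the GTPases that receive the particle, had log2 fold changes of -0.14 and -0.08, with 0 edgeR calls, 0 DESeq2 calls and 0 of the 2 under 0.05 before adjustment.

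Oligosaccharyl transferase carries the sugar chain to asparagines of the entering protein. Of its 11 genes, 10 had negative values, against 49% of all tested genes. edgeR called 1 of the 11 lower, where 2.79% of all tested genes were called lower. STT3A acts on chains as they enter and STT3B on sites that were skipped. Stt3a was at 250, 271 and 267 CPM in MSL2KO and at 318, 313 and 318 CPM in MSL2WT libraries (log2 -0.27 ± 0.07 SE, adjusted p 0.0609 in edgeR), with a wide gap between the groups. Stt3b was at 253, 277 and 276 CPM in MSL2KO and at 265, 280 and 301 CPM in MSL2WT libraries, which overlap (log2 -0.07, adjusted p 0.772). Within each library, Stt3a made up 49.6%, 49.5% and 49.2% of the reads of the pair in MSL2KO, against 54.5%, 52.8% and 51.4% in MSL2WT.

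MAGT1 and TUSC3 are alternative oxidoreductase subunits that go with STT3B. Magt1 (chromosome X, 105968084 to 106011802) was at 125, 147 and 140 CPM in MSL2KO and at 175, 164 and 184 CPM in MSL2WT libraries. It fell by 21.2% (log2 -0.34 ± 0.08 SE, adjusted p 0.0441 in edgeR), and was not called with library totals as the only scaling (adjusted p 0.0545). Tusc3 was at 28.2, 20.5 and 21.1 CPM in MSL2KO and at 21.8, 17.1 and 19.2 CPM in MSL2WT libraries, with overlap and a positive log2 fold change of 0.26 ± 0.14 (SE, adjusted p 0.448). Magt1 made up 81.6%, 87.7% and 86.9% of the reads of the pair in MSL2KO libraries and 88.9%, 90.6% and 90.5% in MSL2WT libraries. The remaining subunits of the enzyme showed a range of differences. The ribophorin gene Rpn1, whose product guides chains to the enzyme, was at 324, 354 and 381 CPM in MSL2KO and at 405, 413 and 479 CPM in MSL2WT libraries (log2 -0.29, adjusted p 0.124). Ostc, which links STT3A to the channel, was at 119, 126 and 133 CPM in MSL2KO and at 156, 143 and 173 CPM in MSL2WT libraries (log2 -0.32, adjusted p 0.0695). Tmem258, a small subunit, was at 52.3, 55.6 and 51.9 CPM in MSL2KO and at 62, 58.5 and 69.7 CPM in MSL2WT libraries (log2 -0.25, adjusted p 0.159). Rpn1, Ostc and Tmem258 each had separated groups. The subunit genes Rpn2, Dad1, Ddost and Krtcap2 had log2 fold changes between -0.15 and -0.12 and adjusted p from 0.394 to 0.637.

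For 4 of the 5 pairs examined (Sec61a1 with Sec61a2, Sec11a with Sec11c, Stt3a with Stt3b and Magt1 with Tusc3), the share of the first gene was lower in all 3 MSL2KO libraries. The mean differences, MSL2KO minus MSL2WT, were -1.05, -1.75, -3.41 and -4.58 percentage points. The exact two-sided permutation test over the 6 libraries gave 0.1 for each, which is the smallest p that 3 against 3 allow. After Benjamini-Hochberg adjustment over the 5 pairs these were 0.125. For Tram1 with Tram2 the difference was -0.124 points, with overlap (exact permutation p 0.3, adjusted 0.3). The Sec61a1 and Sec11a shares came within rounding of each other between the groups, at 93.3% and 34.4%.

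**Figure D3:**
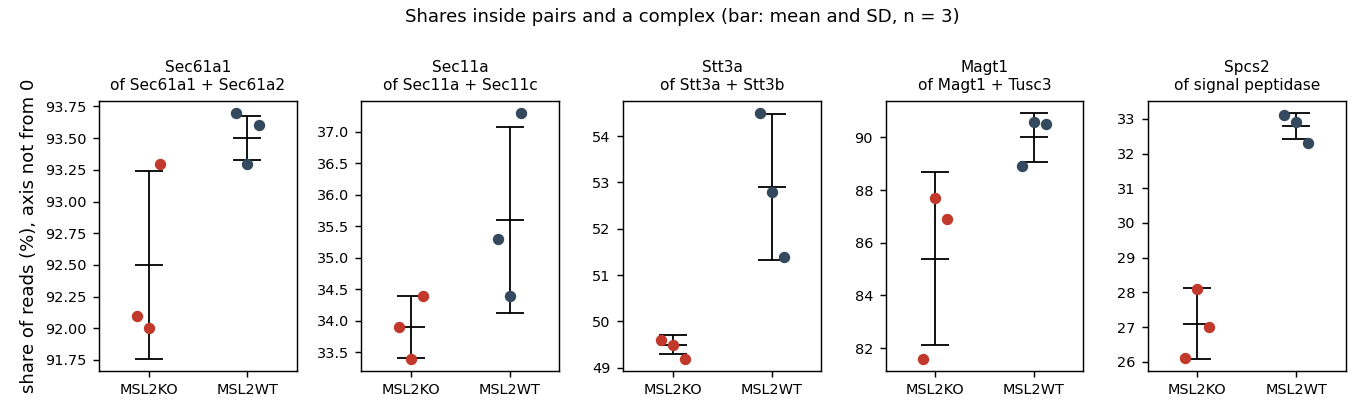
Share of a gene's reads (y axis, percent, not starting at 0) within its pair or, for Spcs2, within the 5 signal peptidase genes, in each of the 3 MSL2KO and 3 MSL2WT libraries, with mean and SD. The largest difference between means is that of Spcs2, at 27.1% in MSL2KO and 32.8% in MSL2WT on average.

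With each library left out in turn, between 31 and 34 of the 36 genes had negative values, and between 1 and 3 were called. Srp14 and Srprb were positive without MSL2WT replicate 3 (log2 0.01 and 0.03), and Sec61a2 was negative without MSL2KO replicate 2 (log2 -0.02), all uncalled. Spcs2 was called in all 14 alternatives, with log2 fold changes from -0.67 to -0.56. Ssr4 lost its call without MSL2KO replicate 3 or MSL2WT replicate 1, and Sec61b in each case except the omission of MSL2WT replicate 2 (adjusted p between 0.046 and 0.144 in edgeR). Spcs3 lost its call in all 6 cases, with adjusted p between 0.0799 and 0.209 and log2 fold changes between -0.33 and -0.26. Magt1 also lost it in all 6, with adjusted p between 0.0571 and 0.138 and log2 fold changes between -0.39 and -0.28. Each such fit also has fewer samples.

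Other genes of protein entry and glycosylation, 74 in 10 lists, also leaned negative, with a smaller median. Of 72 tested, 54 (75%) had negative values, against 49% of all tested genes. edgeR called 0, where 2.79% of all tested genes were called lower. In 18 (25%) all MSL2KO libraries lay below all MSL2WT libraries, against 11.2% of all tested genes. Before adjustment 15 were under 0.05, of which 14 were lower, where 8.43% of all tested genes were lower. DESeq2 called 1 lower, against 3.56% of all tested genes. The 72 values ran from -0.444 (Srd5a3) to 0.196 (Sgta). Their median log2 fold change was -0.08, against -0.17 for the 36 genes described above, a difference that was not tested. The DESeq2 call was Prkcsh, the beta subunit of glucosidase II, at 103, 98.4 and 112 CPM in MSL2KO and 126, 123 and 138 CPM in MSL2WT libraries (adjusted p 0.0563 in edgeR and 0.0186 in DESeq2).

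The medians of the lists lay between -0.16 and 0.07, and differences between lists were not tested. The ER membrane complex, which inserts membrane spans independently of Sec61, had a median of -0.07 over 10 genes, with Emc1 at 101 ± 3.88 and 102 ± 4.07 CPM in MSL2KO and MSL2WT libraries. For the tail-anchored protein pathway, which delivers proteins after synthesis through GET3, 5 of 7 values were positive (median 0.07). The multipass translocon had a median of -0.05 over 6 genes, nascent chain factors and Tmem208 0.02 over 4, and signal peptide peptidase and its relatives -0.10 over 4. The enzymes that build the sugar chain on its lipid carrier had negative values for 20 of 23 genes (median -0.09), and those that trim it afterwards for 7 of 7 (median -0.13). Of all tested genes, 49% had negative values. Chaperones and other lumenal partners of the channel had negative values for 7 of 8 genes (median -0.16). Among them Hspa5, the gene of the chaperone BiP, was at 1566, 1859 and 2002 CPM in MSL2KO and at 1720, 1858 and 2536 CPM in MSL2WT libraries, with wide overlap (adjusted p 0.692 in edgeR). Ost4, the smallest transferase subunit, averaged 16.4 ± 0.368 and 16.4 ± 1.57 CPM in MSL2KO and MSL2WT libraries, and Mlec had a log2 fold change of -0.04. Srp54c had one of -0.15, while Srp54b and Ckap4 had too few reads to be tested. In each of these lists edgeR called 0 genes, and DESeq2 called 0 except for Prkcsh. At an unadjusted p under 0.05 in edgeR, 1 gene was higher, Bag6 of the tail-anchored pathway (log2 0.195), where 6.94% of all tested genes were higher. Lower at that level were 1 of the ER membrane complex, 2 of the multipass translocon, 2 of the peptide peptidases and 1 of the lumenal partners. So were 6 of the sugar chain enzymes and 2 of the trimming enzymes, where 8.43% of all tested genes were lower. The nascent chain factors had 0, as did the 3 tested genes that share a complex with the 36.

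**Figure D4:**
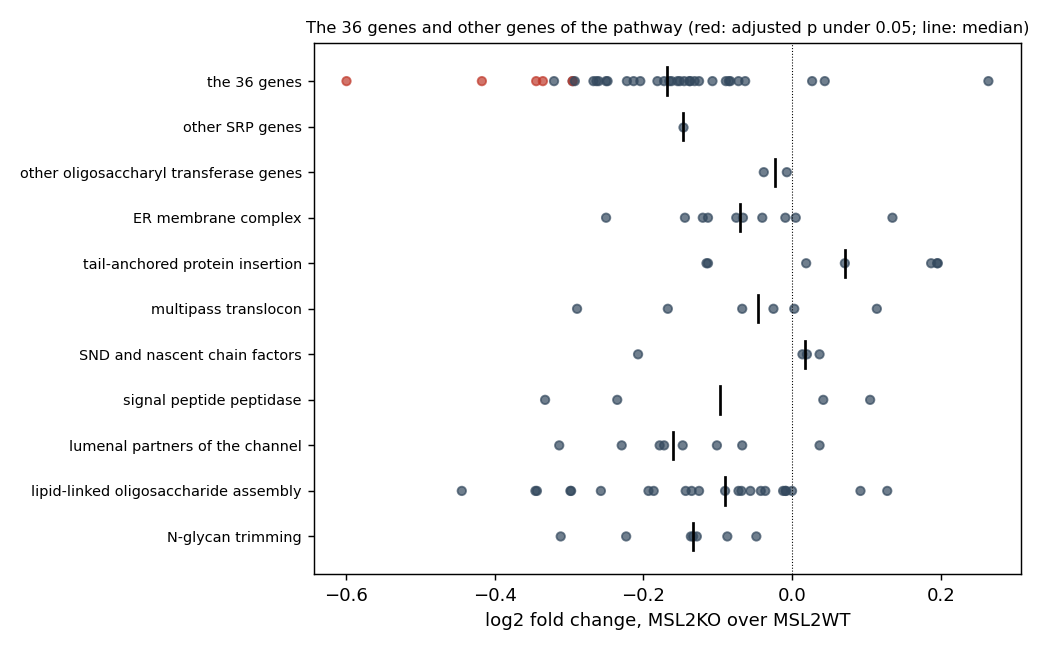
Log2 fold change, MSL2KO over MSL2WT (x axis), of each tested gene in the 36-gene set (top row) and in 10 other lists of the pathway, with the median as a black line and called genes in red. The called genes are all in the top row, whose median is -0.17.

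Of 10 markers of plasma cells, 7 were tested, of which edgeR called 3 lower (Xbp1, Sdc1 and Mzb1) and 0 higher, where 2.79% of all tested genes were called lower. The other markers tested, Irf4, Jchain, Slamf7 and Ell2, were not called by edgeR. Ell2 lay lower in all 3 MSL2KO libraries (log2 -0.29, adjusted p 0.0736 in edgeR) and was called lower by DESeq2 (adjusted p 0.035). DESeq2 called 4 of the 7 lower, where it called 3.56% of all tested genes lower. Before adjustment 4 were lower at p under 0.05 in edgeR, against 8.43% of all tested genes. Xbp1 (ENSMUSG00000020484.19, chromosome 11, 5520641 to 5525993) was at 173, 194 and 176 CPM in MSL2KO and at 465, 394 and 474 CPM in MSL2WT libraries. The groups were far apart, and it fell by 59.3%, with a log2 fold change of -1.30 ± 0.09 (SE, adjusted p 6.82e-05 in edgeR). Its active, spliced transcript and the unspliced one are counted together here. Sdc1, the surface proteoglycan CD138, fell to 11.1, 12.9 and 11 CPM in MSL2KO, against 20.6, 22.8 and 32 CPM in MSL2WT libraries (adjusted p 0.00383 in edgeR). Mzb1, an ER protein of antibody-secreting cells, fell to 33.3, 34.9 and 32.5 CPM in MSL2KO, against 44.2, 47.8 and 55.1 CPM in MSL2WT libraries (adjusted p 0.00963 in edgeR). Prdm1, the master regulator of plasma cells, had at most 3 reads in any library, and Tnfrsf17 at most 5. Irf4 and Jchain had adjusted p of 0.676 and 0.946 in edgeR. Whether plasma cells had a part in these differences was not tested. The summed level of the 10 markers lay between 455 and 505 CPM in MSL2KO and between 831 and 836 CPM in MSL2WT libraries. Much of that difference is Xbp1, which alone averaged 181 CPM in MSL2KO and 445 CPM in MSL2WT libraries. The part of these markers in the lower level of the entry genes was not tested.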

How the data were processed

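RNA libraries from 6 samples were used, 3 titled MSL2KO and 3 titled MSL2WT. The 9 ChIP and input samples were not used here. The deposited values are raw read counts per gene, made, per the submitters' processing notes, on mm10 with tools that include the aligner STAR (2.5.3a) and the counter featureCounts (2.0.0); how reads on overlapping genes or strands were counted is not given in the sources used here. Total counts per library, given with the results, set the precision. Symbols were assigned by Ensembl identifier without its version, which matched 55154 of 55335 identifiers, and 1 of the 36 genes (Magt1) matched only in this way.

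Counts were scaled by TMM, filtered with filterByExpr (13077 genes kept) and tested with the quasi-likelihood test of edgeR 4.0.16 in R 4.3.3, with Benjamini-Hochberg adjustment over all tested genes and a call at 0.05. The script was tested on simulated data, where it called 1 of 50 genes changed 1.25-fold and 30 of 50 changed 1.5-fold. At 2-fold and 4-fold it called 35 and 48 of 50, and of 12877 unchanged genes it called 15. Changes of about 1.25-fold were thus rarely called, so a missing call does not show that a gene was unchanged. Alternatives used DESeq2 1.42.0, limma-voom (limma 3.58.1), other scalings and filters, a replicate block and omitted libraries. Replicates of a group differed by more than counting noise in every pair, with a chi-square of 6.53 to 17.5 per degree of freedom. Pair shares were compared with exact two-sided permutation tests.

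The genes and lists were chosen with earlier results of these data known. Of the 36 genes, values per library are given for those called, those at an unadjusted p under 0.05 and both genes of each pair; the rest are given by their mean or fold change. That rule also named, in each role, the gene with the highest CPM per kb, which was not applied because transcript lengths were not used here, so levels are not compared between genes.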

Additional observations from a re-analysis of the deposited data

How the results depend on the processing

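Of the 36 genes, 0 were called higher under any of the 14 alternatives, between 31 and 34 had a negative log2 fold change, and their median lay between -0.215 and -0.145. Against 5 called lower, there were 4 with RLE scaling (without Spcs3), 4 with library totals only (without Magt1), 8 with no filter on low counts, 11 with DESeq2, 1 without replicate 2 in both groups and 1 to 3 with each library left out. Over all tested genes, 365 were called lower and 235 higher. With no filter these were 721 and 482. Keeping genes at or above 2 in mean log2 CPM, 232 were called lower. Without replicate 2 in both groups, 224 were called lower. With each library left out, 242 to 316 were called lower and 138 to 227 higher. Same-numbered libraries deviated together with correlations of 0.0643, 0.225 and 0.435 for MSL2KO replicates 1, 2 and 3. With MSL2WT libraries of other numbers these ran from -0.0494 to -0.00669, from -0.404 to 0.265 and from -0.317 to -0.207. The labels do not say that the number marks a shared culture or day, and the first correlation is not over 0.1. The numbers were therefore not taken as pairing in the main fit. With the replicate number as a block, 11 of the 36 genes were called lower, and 565 genes lower and 381 higher over all tested genes. The causes of these differences were not tested. In fits of single genes, 459 of the values kept their call and direction, 16 gained a call, 25 lost one and 4 changed sign without a call. These were Srp14 and Srprb without MSL2WT replicate 3, and Sec61a2 without MSL2KO replicate 2 and without replicate 2 in both groups (-0.019). With each library left out, log2 fold changes ran from -0.106 to 0.014 for Srp14, from -0.155 to 0.033 for Srprb and from -0.018 to 0.078 for Sec61a2.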

Other observations

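The nearest tested genes on either side of the 5 called genes, 10 in all, were also read, and edgeR called 1 of them. Of all tested genes, 2.79% were called lower and 1.8% higher. Alg2, a mannosyltransferase that helps build the N-linked sugar chain, lies 294 bases from Sec61b, and was at 17.7, 19.5 and 18.5 CPM in MSL2KO and at 24.4, 21.9 and 20.4 CPM in MSL2WT libraries. All MSL2KO libraries lay below, but the test did not call it (log2 fold change -0.26, adjusted p 0.256 in edgeR). Idh3g, a subunit of the mitochondrial isocitrate dehydrogenase, lies 126 bases from Ssr4, and was at 150, 140 and 136 CPM in MSL2KO and at 147, 151 and 153 CPM in MSL2WT libraries, which overlap (adjusted p 0.695 in edgeR). Vegfc, a growth factor of lymphatic vessels and the nearest tested gene on one side of Spcs3, 333979 bases away, was higher, at 15.8, 18.5 and 18.2 CPM in MSL2KO against 9.54, 11.1 and 9.75 CPM in MSL2WT libraries (log2 fold change 0.79, adjusted p 0.00428 in edgeR). Gpm6a, a neuronal membrane glycoprotein gene on the other side of Spcs3, had 2.24, 1.13 and 1.39 CPM in MSL2KO and 0.565, 0.677 and 0.199 CPM in MSL2WT libraries, with all MSL2KO libraries above but no call (adjusted p 0.0725 in edgeR). Cox7b, a subunit gene of cytochrome c oxidase 3898 bases from Magt1, had 185, 173 and 162 CPM in MSL2KO and 190, 187 and 236 CPM in MSL2WT libraries, with all MSL2KO libraries below but no call (log2 fold change -0.235, adjusted p 0.293). The groups overlapped for Stx17, Avpr2, Arrb1, Xrra1 and Atrx. Over all tested genes, all MSL2KO libraries lay below all MSL2WT libraries in 11.2% and above in 9.68%. The median coefficient of variation among replicates was 5.47% in MSL2KO and 5.85% in MSL2WT libraries for the 36 genes, against 6.94% in MSL2KO and 8.06% in MSL2WT libraries for all tested genes at or above the level of the lowest of them. That lowest gene is Tram2, and the sets were not otherwise matched in level. The lower spread is therefore not read as a trait of the 36 genes.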
